A study of Rattus norvegicus with 3 samples.

Results

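A stretch of rat chromosome 14 from 46 to 52 Mb, in which H3K9me3 peaks lay close together, is described here from peak lists of round spermatids. The stretch was selected on its H3K9me3 cover, and its members were all peaks on chromosome 14 of the rn6 build whose start lay from 46000000 to below 52000000: 888 of the 49591 H3K9me3 peaks and 30 of the 7684 H3K4me3 peaks in the deposited lists. Round spermatids are haploid germ cells of the testis that have completed meiosis and have not yet elongated. Untreated round spermatids of Sprague-Dawley rats were assayed by ChIP-seq, the sequencing of DNA precipitated together with a chromatin protein, using a mouse antibody against H3K4me3, a rabbit antibody against H3K9me3, or no antibody. The 3 samples form 3 groups of 1 library each, and the labels used here give neither the age nor the number of the animals. The 2 marks each have a peak list, and a list of the third library was not used here. The library without antibody is taken as the control of both lists, because the word negative in the naming of the lists is also in its title. The labels do not state this, and the same word could mean that the roles of precipitate and control were swapped, and the positions below would then mark an excess of the control. No file holds read counts, so the depth of the libraries is unknown. With 1 library per mark there is no replicate error, and no test was made between marks or regions.

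H3K4me3 is trimethylation of lysine 4 of histone H3, laid down by enzymes of the SET1 and MLL families and typical of active promoters. H3K9me3, on lysine 9 of the same histone, is laid down by SETDB1 and the SUV39H enzymes, is bound by HP1 proteins and is typical of heterochromatin, silenced repeats and some clusters of related genes. In round spermatids transcription continues until the chromatin is compacted and most histones are replaced by protamines. Genes in the domain are not named, because an annotation of the rn6 build was not used here.

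The domain held 41.5% of the H3K9me3 peaks of chromosome 14 and 45.4% of their covered length in 5.21% of the span of the chromosome. Its 888 peaks covered 1200 kb, or 19.99% of the 6 Mb, against 1.32% of the other 109 Mb. Their density was 148 per Mb (exact 95% Poisson interval 138 to 158), against 11.5 per Mb (10.8 to 12.1) in the rest of the chromosome, a ratio of 12.9. The domain was delimited from this cover, so the H3K9me3 values of this and the next paragraphs describe it and carry no test. The chromosome was measured up to its last peak of either mark, at 115 Mb. The next densest stretch of 6 Mb on the chromosome, from 11 to 17 Mb, was covered to 4.49%.

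Each of the 6 windows of 1 Mb was over 5% covered, a level reached by 9.8% of the 2786 windows on chromosomes 1 to 20 and X and by 5 of the 110 windows elsewhere on chromosome 14. The window from 50 to 51 Mb was the densest, with 232 peaks over 365 kb. It ranked 27 among the 2786 windows and 8 among the 2672 windows outside chromosome 13. The window from 47 to 48 Mb followed with 185 peaks over 264 kb, then 49 to 50 Mb with 167 peaks over 202 kb and 48 to 49 Mb with 140 peaks over 169.99 kb. Both outer windows were sparser, with 94 peaks over 114 kb from 46 to 47 Mb and 70 peaks over 84.9 kb from 51 to 52 Mb. Over the rest of the chromosome the median window was covered to 0.417%, and 87 of 110 windows lay below 1%.

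The edges of the domain differed in form. On the proximal side, the last H3K9me3 peak before the limit, at 45640432 to 45641269 with a score of 172, was followed by 576 kb without a peak. The first member, at 46217327 to 46218039, had a score of 42.4, and the first 100-kb window over 5% covered began at 46.2 Mb, already covered to 13.6%. The 7 windows of 1 Mb before the domain, from 39 to 46 Mb, held 27 H3K9me3 peaks and were covered to between 0 and 1.01%. On the distal side, cover was lower beyond 51.1 Mb but irregular. It was 44.5% from 51 to 51.1 Mb, 7.46% in the next 100 kb and 1.59% in the one after, then 18.7% from 51.3 to 51.4 Mb, 0 in the next window and 6.44% from 51.5 to 51.6 Mb. The last member, at 51904971 to 51906022 with a score of 59.1, and the first peak beyond 52 Mb, at 52175126 to 52175851 with a score of 56.6, were 269 kb apart. The 7 windows from 52 to 59 Mb held 190 H3K9me3 peaks, with cover from 0.984% to 5.27% and a median of 1.93%. Short runs of 100-kb windows over 5% covered continued beyond the limit, from 53.4 to 53.7 Mb at 13.2% for example, and the search for them stopped at 54 Mb. Windows past that point were still over 5% covered, with 7.57%, 14.1% and 14.8% in the first 3 of them, so no distal edge was fixed.

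**Figure D1:**
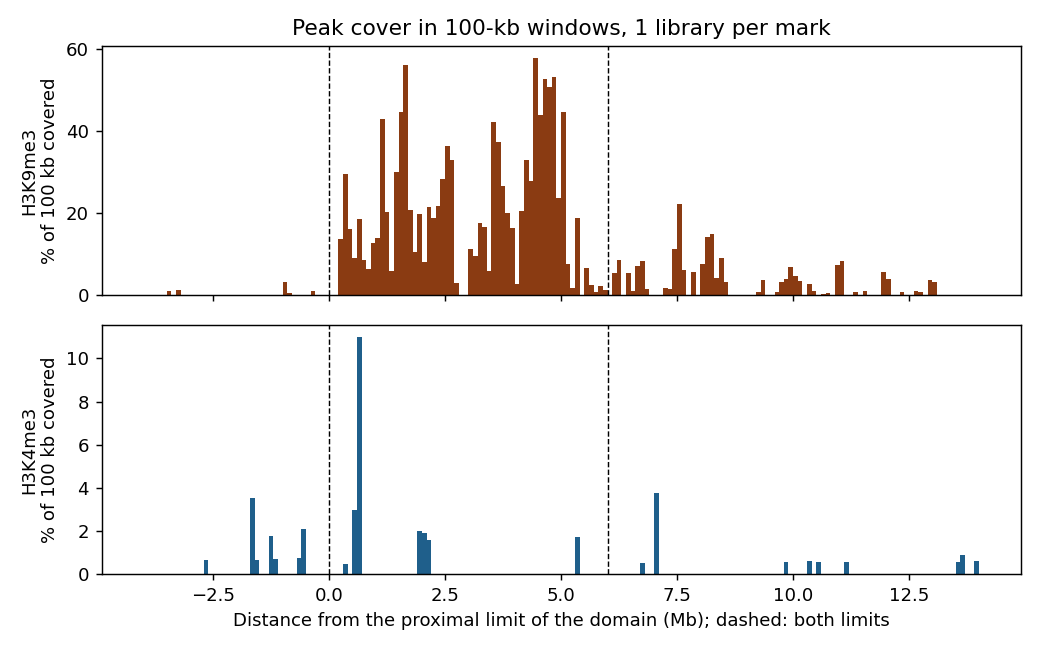
Percent of each 100-kb window covered by H3K9me3 peaks (top) and H3K4me3 peaks (bottom), by distance in Mb from the proximal limit of the domain, with 1 library per mark and both limits dashed. H3K9me3 cover begins at 13.6% next to empty windows on the left and goes on at lower, irregular levels past the right limit, while H3K4me3 forms a few narrow groups.

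Within the limits, H3K9me3 cover was uneven. Of 60 windows of 100 kb, 48 were over 5% covered, 25 over 20% and 10 over 40%, whereas 5 had no peak. The 5 densest lay in 2 places, at 47.6 to 47.7 Mb with 56.0% and at 50.4 to 50.5, 50.6 to 50.7, 50.7 to 50.8 and 50.8 to 50.9 Mb with 57.8%, 52.6%, 50.6% and 53.0%. The 5 windows without a peak were 46 to 46.1, 46.1 to 46.2, 48.8 to 48.9, 48.9 to 49 and 51.4 to 51.5 Mb. The longest run of windows over 5% extended from 46.2 to 48.7 Mb and was covered to 21.8%. The run from 49 to 50 Mb was covered to 20.2% and that from 50.1 to 51.2 Mb to 37.6%. The runs were separated by the widest gap between neighbouring members, 304 kb from 48710094 to 49013819, and by the window from 50 to 50.1 Mb, which was covered to 2.73%. The next widest gaps were 159 kb from 51394990 to 51553856, 99.1 kb from 51682893 to 51781970, 98.3 kb from 46790574 to 46888827 and 95.7 kb from 46425438 to 46521117.

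Neighbouring peaks were close. The median distance between the end of one H3K9me3 peak and the start of the next was 1141 bp, with quartiles of 305.5 and 4241 bp, against 4542 bp, with quartiles of 703 and 39058 bp, in the rest of the chromosome. Distances of at most 1 kb made up 47.2% of the 887 in the domain and 29.1% of the 1249 outside it, and distances over 10 kb 11.6% and 39.2%. Joining members within 10 kb of each other gave 104 groups, of which 30 were single peaks and 26 had 10 or more peaks. These 26 groups contained 632 of the 888 members. The longest ran over 241 kb from 50726846 to 50968146, with 73 peaks and 47.3% cover, followed by 207 kb from 49489649 to 49696803, with 61 peaks and 39.6% cover. Neither held an H3K4me3 peak. Joining within 1 kb gave 469 segments, the longest 21.3 kb from 50468229 to 50489503.

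**Figure D2:**
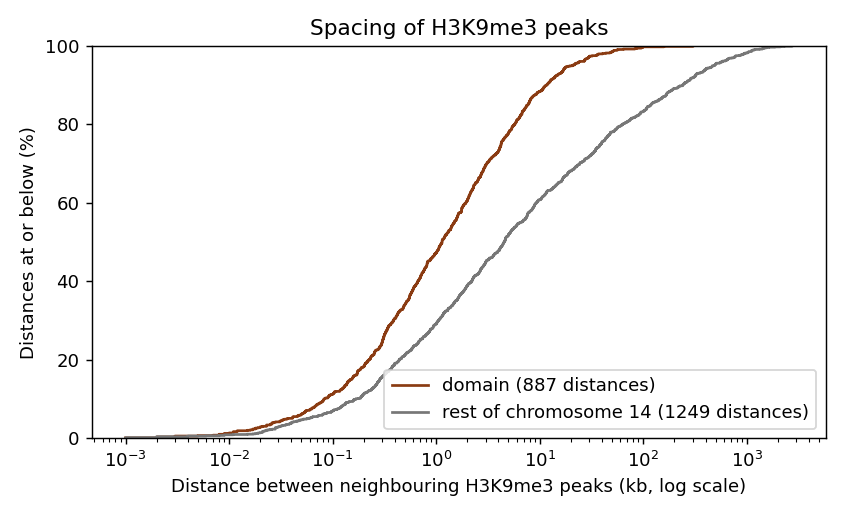
Cumulative percent of distances between neighbouring H3K9me3 peaks (kb, log scale) in the domain (887 distances) and in the rest of chromosome 14 (1249 distances), 1 library. The curve of the domain lies to the left, with a median of 1.14 kb against 4.54 kb.

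Members were also somewhat wider than peaks elsewhere on the chromosome. Their median width was 1024.5 bp, with quartiles of 745.5 and 1621 bp, against 809 bp, with quartiles of 634 and 1243 bp. Peaks over 3 kb numbered 58 of 888 (6.53%) and 53 of 1251 (4.24%). Over all chromosomes the median width was 929 bp and 6.72% of peaks were over 3 kb, so the domain's share of such peaks was near the general level. Of the 58, 26 lay between 50 and 51 Mb and 14 between 47 and 48 Mb. The 5 widest were at 50611300 to 50621337 with 10038 bp, 49603374 to 49610844 with 7471 bp, 50826284 to 50832414 with 6131 bp, 50706585 to 50712242 with 5658 bp and 47557398 to 47562997 with 5600 bp. None of these 5 met an H3K4me3 peak, nor did any of the 58. Of peaks over 3 kb, 19 of the 53 in the rest of the chromosome and 353 of 3297 over all chromosomes did.

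The score, which the peak caller gave each peak, had a median of 74.4 in the domain, with quartiles of 43.1 and 145, against 53.0, with quartiles of 36.8 and 98.8, in the rest of the chromosome. The excess lay in the middle of the range. The domain's part of the H3K9me3 peaks of chromosome 14 was 41.5% over all scores, 51.9% at a score of at least 100 and 20.6% at a score of at least 1000. Scores over 1000 were given to 7 of 888 members (0.788%) and 27 of 1251 peaks outside (2.16%), where all chromosomes together gave 1.15%. All 7 lay on an H3K4me3 peak, as did 21 of the 27 outside (77.8%), and the share over all chromosomes was not counted here. The highest was 3100, a value shared by 100 peaks of the list, at 47987799 to 47989418. It was followed by 1841 at 46644634 to 46645545, 1808 at 46609541 to 46611341, 1748 at 46329404 to 46329844, 1579 at 46595313 to 46596934, 1117 at 46600028 to 46600752 and 1049 at 46643468 to 46644393. Of these 7, all but those at 47987799 and 46329404 lay between 46.5 and 46.7 Mb. The other three of the 10 highest were wide peaks off H3K4me3, with 986 at 50611300, 924 at 49603374 and 772 at 50739396.

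H3K4me3, which was not used to delimit the domain, had 30 peaks there, or 5.00 per Mb (3.37 to 7.14), against 318 peaks or 2.91 per Mb (2.60 to 3.25) in the rest of the chromosome. The ratio was 1.72 (exact 95% interval 1.14 to 2.50), but it rested on 1 place. Between 46.5 and 46.7 Mb lay 21 of the 30 peaks. Without those 200 kb, a setting chosen after the values were seen, 9 peaks remained and the ratio was 0.533 (0.241 to 1.02). The rest kept its own dense places in that ratio, with 97 of its 318 peaks in 5 windows of 1 Mb over 5% covered by H3K9me3. With those 5 windows left out of the rest and the domain kept whole, the ratio was 2.36. The intervals treat peaks as independent, which grouped peaks are not, and cover counting error only. In covered length the domain was close to the rest, at 0.360% against 0.333%. The H3K4me3 peaks of the domain were narrower, with a median of 640.5 bp against 878 bp, and had a median score of 84.8 against 46.5. Among H3K4me3 peaks that overlapped an H3K9me3 peak, the median widths were 664 and 1057 bp and the median scores 95.8 and 71.5. The 9 peaks of the domain outside 46.5 to 46.7 Mb, all overlapping, had a median width of 713 bp. Their median score was 73.9, close to the 71.5 of the rest, so the higher score rested on that 1 place.

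The 30 H3K4me3 peaks formed 5 groups when peaks within 50 kb were joined. A single peak lay at 46329404 to 46329869 with a score of 515. The largest group, at 46525489 to 46670963, held 21 peaks with scores from 31.4 to 569. The third group, at 47986127 to 48023226, held 5 peaks with scores from 35.7 to 796, among them the highest H3K4me3 score of the domain at 47987856 to 47989380. A single peak at 48133316 to 48134880 had a score of 97.6. The last group was a pair at 51360917 to 51362663 with scores of 31.1 and 35.0, close to the lowest scores of the list. Between the fourth group and this pair, 3.23 Mb from 48134881 to 51360916 held no H3K4me3 peak and 577 H3K9me3 peaks, 65.0% of the members, covering 24.5%. Such a length without H3K4me3 was not particular to the domain. The widest distance between neighbouring H3K4me3 peaks was 3795 kb in the rest of chromosome 14 and 3256 kb on chromosome 8 between 16 and 22 Mb. Of the 60 windows of 100 kb, 7 had an H3K4me3 peak. Most windows from 40 to 46 Mb and from 52 to 62 Mb had none either, but the share among windows elsewhere was not counted. The nearest H3K4me3 peaks outside the limits were at 45472099 to 45473013, with a score of 53.3, and at 52757708 to 52758214, with a score of 30.6.

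H3K4me3 in the domain lay almost entirely on H3K9me3. Of the 30 peaks, 29 overlapped an H3K9me3 peak by at least 1 bp (96.7%, Wilson interval 83.3 to 99.4%), where the level was 31.9% over all chromosomes and 107 of 318 (33.6%, 28.7 to 39.01%) in the rest of chromosome 14. The exception, at 46525489 to 46526051 with a score of 50.7, ended 198 bp before an H3K9me3 peak. H3K4me3 peaks off H3K9me3 thus stood at 0.167 per Mb (0.00422 to 0.929) in the domain and 1.93 per Mb (1.68 to 2.21) in the rest of the chromosome. Those on H3K9me3 stood at 4.83 per Mb (3.24 to 6.94) and 0.980 per Mb (0.803 to 1.18), or at 1.55 per Mb (0.710 to 2.95) in the domain without 46.5 to 46.7 Mb. The domain was chosen on H3K9me3 cover, so these contrasts with the rest are partly built in by the choice. Other windows of chromosome 14 over 5% covered had a similar share of H3K4me3 peaks on H3K9me3. In those 5 windows 93 of 97 H3K4me3 peaks were on H3K9me3, against 14 of 221 in the remaining 105 windows outside the domain. These 5 windows had 19.4 H3K4me3 peaks per window, unevenly spread. On H3K9me3 were 41 of 42 from 22 to 23 Mb and 42 of 43 from 94 to 95 Mb. The count was 10 of 10 from 15 to 16 Mb but 0 of 2 from 62 to 63 Mb. The window from 54 to 55 Mb had 0 H3K4me3 peaks.

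Seen from H3K9me3, the overlap was rare. Of the 888 members, 27 lay on an H3K4me3 peak (3.04%, 2.10 to 4.39%), where the level was 4.44% over all chromosomes and 79 of 1251 (6.31%, 5.10 to 7.80%) in the rest of chromosome 14. In the window from 46 to 47 Mb it was 19 of 94, and in the windows from 49 to 50 and 50 to 51 Mb 0 of 167 and 0 of 232. The share of the domain was 1.06% without 46.5 to 46.7 Mb.

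The 27 H3K9me3 peaks on H3K4me3 were narrow for their score. Their median width was 802 bp, with quartiles of 606 and 1030 bp, and their median score 471, with quartiles of 266 and 908. The 861 peaks off H3K4me3 had a median width of 1043 bp, with quartiles of 752 and 1652 bp, and a median score of 71.6, with quartiles of 42.5 and 137. Among peaks of at most 750 bp, the median score was 471 for the 12 on H3K4me3 and 37.4 for the 215 off it. In the same width class of the rest of chromosome 14 it was 80.2 for 22 peaks on H3K4me3 and 36.6 for 514 off it. On H3K4me3, peaks of 750 to 1500 bp had like medians, 301 for 11 members and 306 for 19 peaks of the rest. At 1500 to 3000 bp the medians on H3K4me3 were 1694 for 4 members and 676 for 19 peaks of the rest. Off H3K4me3, the score of members increased with width, from that 37.4 to 66.5 for 398 peaks of 750 to 1500 bp, 162 for 190 peaks of 1500 to 3000 bp and 333 for 58 wider peaks. The corresponding medians off H3K4me3 in the rest of the chromosome were 57.3, 148 and 444. Both values of a peak come from the same library and the same caller.

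**Figure D3:**
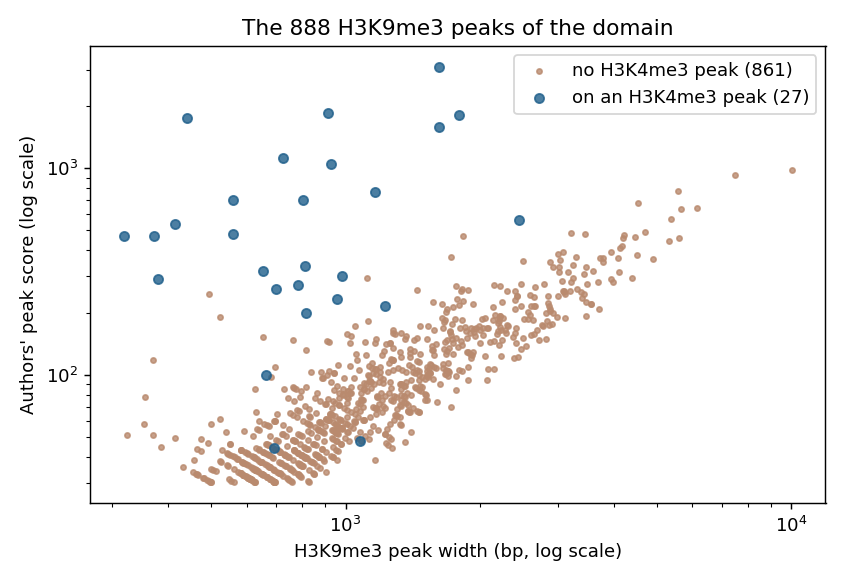
Score against width (bp) of the 888 H3K9me3 peaks of the domain, both on log scales, with the 27 peaks on an H3K4me3 peak in blue and the other 861 in brown, 1 library. The brown peaks form a band that rises with width, and most blue peaks lie above it at widths near their median of 802 bp.

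In the largest dual group, from 46525489 to 46670963, 33 H3K9me3 peaks covered 18.2% of 145 kb, and 18 of them lay on H3K4me3. These 18 had a median score of 471, from 199 to 1841. The other 15 had a median score of 109, from 43.2 to 295, and a median width of 694 bp against 799 bp. The highest H3K4me3 scores of the group, 569 at 46644645 to 46645671 and 561 at 46643248 to 46644323, were on H3K9me3 peaks with scores of 1841 and 1049. The next H3K4me3 scores there were 310 at 46600026, 282 at 46609541, 260 at 46596184, 170 at 46648786 and 105 at 46608240, each on an H3K9me3 peak. An H3K9me3 score of 1808 at 46609541 to 46611341 belonged to a peak that held 2 H3K4me3 peaks with scores of 282 and 62.6, and one of 1579 at 46595313 to 46596934 to a peak that held 2 with 32.4 and 260. In the group from 47986127 to 48023226 each of 5 H3K4me3 peaks, with the next highest score after the 796 being 132 at 48002349, lay on its own H3K9me3 peak, and no further H3K9me3 peak lay in those 37.1 kb.

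**Figure D4:**
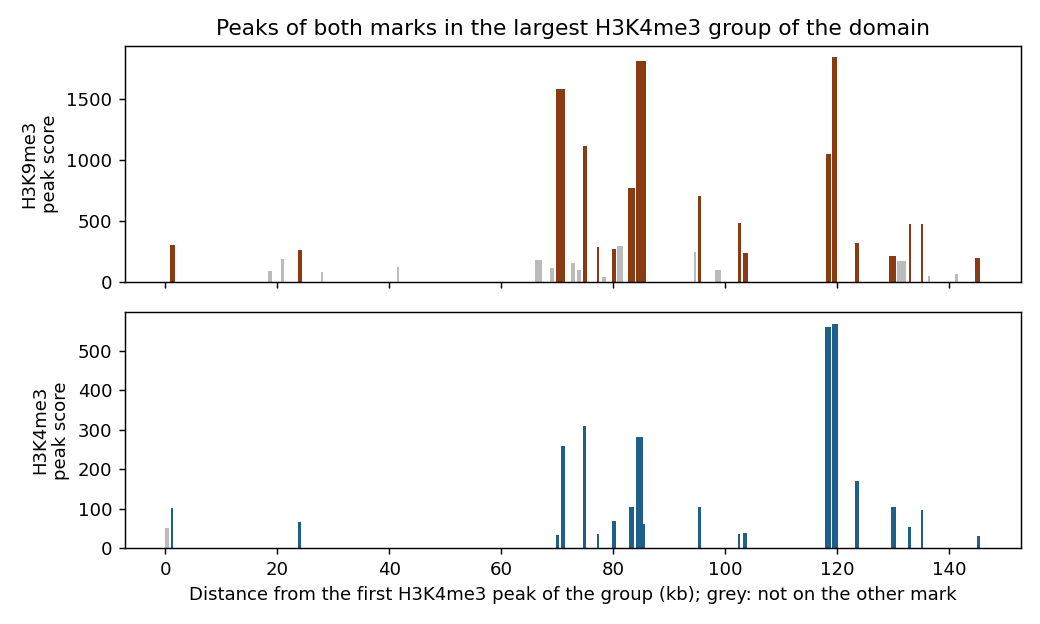
Scores of H3K9me3 peaks (top) and H3K4me3 peaks (bottom) in the largest H3K4me3 group of the domain, by distance in kb from its first H3K4me3 peak, bars as wide as the peaks (at least 0.3 kb) and grey where the other mark has no overlapping peak. The tall H3K9me3 bars stand at the places of H3K4me3 peaks, and the 15 grey H3K9me3 bars stay at or below 295.

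The outlines of overlapping peaks were close to each other. The 29 H3K4me3 and 27 H3K9me3 peaks made 30 overlapping pairs. Of these peaks, 20 of H3K4me3 and 18 of H3K9me3 lay in the group from 46525489 to 46670963. The values of the pairs therefore describe mostly that place. The starts of a pair differed by a median of 67.5 bp and the ends by 77 bp, and the shared part was a median of 77.2% of the joint length. In 19 of 30 pairs the starts were within 100 bp, and in 11 both ends were. The start was the same base in 4 pairs, and 1 pair, at 46602627 to 46603005, had both ends identical. The 110 pairs in the rest of chromosome 14 differed by medians of 331 and 185.5 bp, shared 45.9% of the joint length, and 0 had the same start. Their peaks were wider, with medians of 1036 bp for H3K4me3 and 2307 bp for H3K9me3 against 670.5 and 813 bp in the pairs of the domain. The part of width in the offsets was not tested. In the domain the H3K9me3 peak had the higher score in all 30 pairs, by 1.26 to 48.7 times with a median of 4.95. In the rest it had the higher score in 101 of 110 pairs, with a median ratio of 5.42. These ratios depend on the depth of both libraries and do not compare the amounts of the marks. Spearman's rho between the scores of a pair was 0.69 over the 30 pairs and 0.45 over the 110, as a description across sites of the same pair of libraries.

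The domain was set beside 3 other stretches rich in H3K9me3, without a test. The stretches of chromosomes 1 and 7 lie in parts singled out earlier for holding both marks. Their H3K4me3 values therefore depend on that choice. H3K9me3 cover was 25.9% on chromosome 8 between 16 and 22 Mb, 31.3% on chromosome 1 between 73 and 78 Mb and 16.6% on chromosome 7 up to 11 Mb. Median H3K9me3 widths were 1187, 1294 and 941 bp, and median distances between neighbours 831, 653 and 1300 bp, against 1024.5 and 1141 bp in the domain. H3K4me3 peaks numbered 1.5 per Mb (0.686 to 2.85) on chromosome 8, 7.40 (5.21 to 10.2) on chromosome 1 and 9.18 (7.48 to 11.2) on chromosome 7. The domain stood at 5.00 (3.37 to 7.14) with all its peaks and at 1.55 (0.710 to 2.95), close to chromosome 8, without 46.5 to 46.7 Mb. These intervals cover counting error only. On H3K9me3 lay 1 of 9 H3K4me3 peaks on chromosome 8, 34 of 37 on chromosome 1 and 88 of 101 on chromosome 7, against 29 of 30 in the domain. The share of H3K9me3 peaks on H3K4me3 was 0.105%, 3.06% and 4.88% in that order, against 3.04% in the domain. The stretch of chromosome 8, of the same length and with 159 H3K9me3 peaks per Mb against 148, had 8 of its 9 H3K4me3 peaks off H3K9me3, whereas the 9 of the domain outside 46.5 to 46.7 Mb all lay on it. Median H3K4me3 scores were 45.9, 46.97 and 58.0 on chromosomes 8, 1 and 7 and median widths 907, 860 and 803 bp, against 84.8 and 640.5 bp in the domain. Without 46.5 to 46.7 Mb the domain's medians were 73.9 and 713 bp, from 9 peaks.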

How the data were processed

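The deposited peak lists hold, for each peak, a sequence name, a start, an end, a name given by the caller MACS and the authors' score. The build rn6, Bowtie 1.2, bcl2fastq and FastQC are named, without roles, per the submitters' processing notes. The sources used here do not give the caller's settings, duplicate removal or the handling of reads with several matching places. No header says what the deposited score is. It was used only to describe, rank and filter peaks within a list.

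Starts are printed counted from 1. Overlap means at least 1 bp. Windows were counted from the start of the chromosome. Poisson, conditional ratio and Wilson intervals are at the 95% level, cover only counting error and take peaks to be independent. The functions were tested on simulated data. The work used Python 3.11.15 with pandas 2.3.3, numpy 2.4.6, matplotlib 3.10.9 and scipy 1.17.1.

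The domain, the stretches compared with it and the alternatives were chosen with earlier results of these data known. The rule for named regions takes the 10 highest scores, the 5 widest peaks, the 5 widest gaps, the 5 densest and 5 sparsest 100-kb windows, each 1-Mb window, the 10 highest of the H3K4me3 peaks and the peaks at each limit. Other regions were named after their values were seen, among them the groups of H3K4me3 peaks. The alternatives were a stricter score, membership by midpoint, other references on chromosome 14, joined peaks, other overlaps and other windows.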

Additional observations from a re-analysis of the deposited data

How the results depend on the processing

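Of 32 values recomputed under 11 settings, 20 stayed within their interval or, where none exists, within 1.5 times, 11 moved further and 1 changed direction. The ratio of H3K9me3 density between the domain and the rest of chromosome 14 (12.9) was 17.5 with scores at or above the list median, 11.6 without windows lacking an H3K9me3 peak, 18.9 without the rest's own windows over 5% covered and 9.61 with peaks within 1 kb joined. Joining also gave 1565 bp as the median width and 4075.5 bp as the median distance, and the stricter score a median distance of 2260 bp. The H3K4me3 density ratio (1.72) was 2.63 with the stricter score and 2.36, within its interval, without the rest's own windows over 5% covered. It was 0.533 with 46.5 to 46.7 Mb left out of the domain. In the domain so reduced, the share of H3K9me3 peaks on H3K4me3 was 1.06% and that of H3K4me3 peaks on H3K9me3 100%. In the whole domain, the share of H3K4me3 peaks on H3K9me3 was also 100% when peaks within 1 kb counted. Apart from the values that omit a stretch or join peaks, the cause was not tested. The first to last covered window spanned 7.7 Mb, 7.6 Mb with 50-kb windows and 7.4 Mb at over 10% covered, but the search ended at 54 Mb with covered windows beyond it, so the distal end of these spans reflects that limit. No paired analysis was possible because each mark has 1 library. Leaving out a library was not possible for the same reason. Depth is unknown, so a stretch without a peak is not shown to lack the mark.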
